A study of Mus musculus with 12 samples.

Results

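BMP (bone morphogenetic protein) signalling was followed in mouse embryonic stem cells (ESC) through 10 genes: the ligand gene Bmp4, the receptor gene Bmpr1a, the Smad genes Smad1, Smad5, Smad4, Smad6 and Smad7, and the target genes Id1, Id2 and Id3. They were taken by symbol as 10 of the 19716 genes of the deposited expression table, and all 10 had a row. The list was chosen with earlier results of these data known. The ESC carried a doxycycline-inducible HA-Flag-AGO2, were at passages 8 to 15, and were grown on gelatin in medium with serum and LIF. The study sequenced rRNA-depleted, strand-specific libraries of RNA from isolated nuclei ("nuclear") and of RNA from whole cells ("total"). In each fraction cells were harvested either after 15 h of doxycycline (dox) at 2.5 ug/ml or without dox, which makes 4 groups: nuclear without dox, nuclear with dox, total without dox and total with dox. Each group has 3 libraries in the labels. All groups share the transgene, and no group without it was analysed here. Neither separate cultures behind the replicate libraries nor the number of clones in the line are stated in the labels, so p-values measure only the spread between these libraries, which may be technical.

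The BMP pathway begins with secreted dimers such as BMP4 that bind a complex of type I receptors (BMPR1A among them) and type II receptors. The type I receptor phosphorylates SMAD1 and SMAD5, which join the common partner SMAD4, enter the nucleus and bind target genes. SMAD6 and SMAD7 are inhibitory Smads that are themselves induced by the pathway and damp it. Id1, Id2 and Id3 are direct targets whose products hold basic helix-loop-helix factors, above all the E proteins, away from DNA. In mouse ESC grown with serum and LIF, BMP signalling through Id proteins is known to hold back neural differentiation beside LIF and STAT3.

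The study's title concerns silencing by nuclear miRNAs, so the 3′UTRs of the 10 genes were searched for seed sites of miRNA families that are abundant in ESC. The mature sequences of 2 families are shown because their seeds (bases 2 to 8, in capitals) overlap in letters and because the sites below belong to them. Both are from RefSeq on GRCm38.p6.
mmu-miR-294-3p, chr7:3220691-3220712, plus strand: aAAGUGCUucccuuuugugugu
mmu-miR-20a-5p, chr14:115044183-115044205, plus strand: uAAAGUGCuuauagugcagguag
The first seed is shared by 5 mature miRNAs there, mmu-miR-291a-3p, mmu-miR-294-3p, mmu-miR-295-3p, mmu-miR-302b-3p and mmu-miR-302d-3p.

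Smad5 was the single member whose 3′UTR held sites for the miR-290/miR-302 seed. It held 2 of them, in a 3′UTR of 4899 bases, the longest among the 10 genes. Each site is shown in a window of 25 bases, and capitals mark the letters that pair with the seed or the A opposite base 1 (GENCODE M21 on mm10).
Smad5, chr13:56740746-56740770, plus strand, miR-290/miR-302: cacttccctggcAGCACTTgggtcc
Smad5, chr13:56741474-56741498, plus strand, miR-290/miR-302: ggtcagtgctcgAGCACTTAgcagg
Smad5, chr13:56738244-56738268, plus strand, miR-17/miR-20/miR-106: tcttttcattttGCACTTTtatggg
Smad6, chr9:63953279-63953303, minus strand, miR-17/miR-20/miR-106: aacaagaaagacGCACTTTggcttg
Id1, chr2:152737386-152737410, plus strand, miR-17/miR-20/miR-106: gttattaaacaaaCACTTTAgataa
A site for the miR-290/miR-302 seed stood in 20.3% of 9517 tested genes with a 3′UTR, and 1 for the miR-17/miR-20/miR-106 seed in 21.5% of them. Of the 10 genes 1 held the first and 4 the second; the fourth of these is Smad7, whose site is not shown. With the families of miR-26, miR-15/miR-16 and miR-21 added, Smad5 held 8 sites and Bmpr1a and Smad7 3 each. Smad1 and Smad4 held 2 each, and Smad6 and Id1 1 each. The added families had sites in 21.3%, 28.5% and 12% of the 9517 genes, and in 3, 5 and 1 of the 10 genes. Of the 8 Smad5 sites 2 overlap, those for miR-15/miR-16 at bases 4716 and 4719 of its 3′UTR. The median 3′UTR of the 9517 genes had 1104 bases, against 4899 for Smad5 and 3810 for Bmpr1a. Sites of all these families were absent from the 3′UTRs of Bmp4, Id2 and Id3, which are 339, 785 and 536 bases long. A match is a description of the sequence and no measure of repression.

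The element GGCGCC, a palindrome to which BMP Smads are known to bind, was searched for in the RefSeq promoter windows, from 250 bases before to 50 after the start (GRCm38.p6). Of the 10 genes 7 had a window, and 3 of these held it. Id1, Smad4 and Smad7 had no window and were not searched. It stood in 25.7% of the 7807 tested genes with a window and in 11.9% of all 32851 windows. The 3 matches are shown, with the element in capitals. Any link between the element and the levels of these genes was not tested. In nuclear RNA labelled dox Id2 was called higher and Bmpr1a and Smad5 lower, and in total RNA Bmpr1a alone of the 3 was called (values below).
Id2, chr12:25096306-25096335, minus strand: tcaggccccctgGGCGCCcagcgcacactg
Bmpr1a, chr14:34502727-34502756, minus strand: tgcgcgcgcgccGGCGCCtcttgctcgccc
Smad5, chr13:56703021-56703050, plus strand: ccccggcgagcgGGCGCCgagcgcttgtcc

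The deposited values are group means of log2(RPKM + 0.001), RPKM being reads scaled to gene length and library depth. The table gives nothing per library, so a level below is the group's geometric mean in RPKM with no SD. The standard errors (SE) come from a residual spread per gene that was recovered from the authors' ANOVA p-values, which rest on 10 of the 12 libraries: 3 nuclear with dox, 2 nuclear without dox, 2 total with dox and 3 total without dox. The libraries labelled dox held 10.34 to 11.79 M reads and those without dox 15.29 to 18.9 M, as read from the steps of low values, so each of the 5 dox libraries behind the means was shallower than each of the 5 without dox. Ago2, the induced gene, went against the label. Its level was 2.39 RPKM in nuclear RNA labelled dox and 8.65 without dox, and 3.43 and 9.12 RPKM in total RNA, a fall of 3.61-fold (limma, Benjamini-Hochberg adjusted p = 4.94e-07) and 2.66-fold (adjusted p = 7.91e-06). Whether reads of the transgene count towards this gene is not given in the sources used here. The longest annotated transcript of Ago2 has 13800 bases, at percentile 99.4 of the tested genes. In the longest of 10 length classes of tested genes, the median log2 change was -0.85 in nuclear and -0.63 in total RNA. The part of length in the fall of Ago2 was not tested. Groups are therefore named "labelled dox" below, and each direction rests on that label. Summed levels of 8 ESC markers were 884 RPKM without and 2518 with the dox label in nuclear RNA, and 1767 and 4181 in total RNA. Most of each sum was Dppa5a, with 617 and 1805 RPKM in nuclear and 1394 and 3387 RPKM in total RNA. Of the 8 markers 6 were called higher in nuclear and 7 in total RNA, beside 43.1% and 41.5% of all tested genes. Tdgf1 was called lower in both (log2 -0.59 and -0.68), and Zfp42 was not called in nuclear RNA. All markers of endoderm, mesoderm, neuroectoderm and feeder cells found in the table stayed under 1 RPKM in every group. The 6 trophectoderm markers summed to 7.74 and 26.4 RPKM in nuclear and 33.0 and 108.9 in total RNA, without and with the dox label. Most of each sum was Krt8, with 17.4 RPKM in nuclear and 92.5 RPKM in total RNA labelled dox. Of the 6 markers 3 were under 1 RPKM: Cdx2, Elf5 and Gata3 stayed at 0.122 RPKM or less in every group. All 5 nuclear long noncoding RNAs tested were called lower with the dox label in both fractions, beside 26.3% (nuclear) and 22.8% (total) of tested genes. Their median log2 change was -2.74 in nuclear and -2.21 in total RNA. Malat1 went from 467 to 77.3 RPKM in nuclear and from 633 to 140.3 RPKM in total RNA. The part of these markers and RNAs in the results was not tested.

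In levels per length, Bmp4 had the lowest mean among the 10 genes in each of the 4 groups, and Smad7 the highest in all but nuclear RNA labelled dox, where Id3 led. Without dox, nuclear RNA held 11.96 RPKM of Smad7 and 5.81 of Id3, then Bmpr1a at 3.76, Id1 at 3.35 and Smad4 at 3.21 RPKM, where the SE ranges of neighbours overlapped. Smad5, Smad6 and Smad1 followed at 1.67, 1.65 and 1.41 RPKM, again with overlapping SE ranges. Id2 at 0.664 and Bmp4 at 0.552 RPKM closed the order, and their SE ranges overlapped too. Total RNA without dox began with Smad7 at 11.3 RPKM, and then Bmpr1a at 5.64, Id1 at 5.09 and Id3 at 4.88 RPKM, whose neighbouring SE ranges overlapped. Smad4 stood at 3.80, Id2 at 2.96, Smad6 at 2.67, Smad5 at 1.42, Smad1 at 1.15 and Bmp4 at 0.476 RPKM, and the SE ranges of Id2 and Smad6 and those of Smad5 and Smad1 overlapped. In both fractions the columns labelled dox differed in order: Id3 stood higher and Bmpr1a lower than in the columns without dox.

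**Figure D1:**
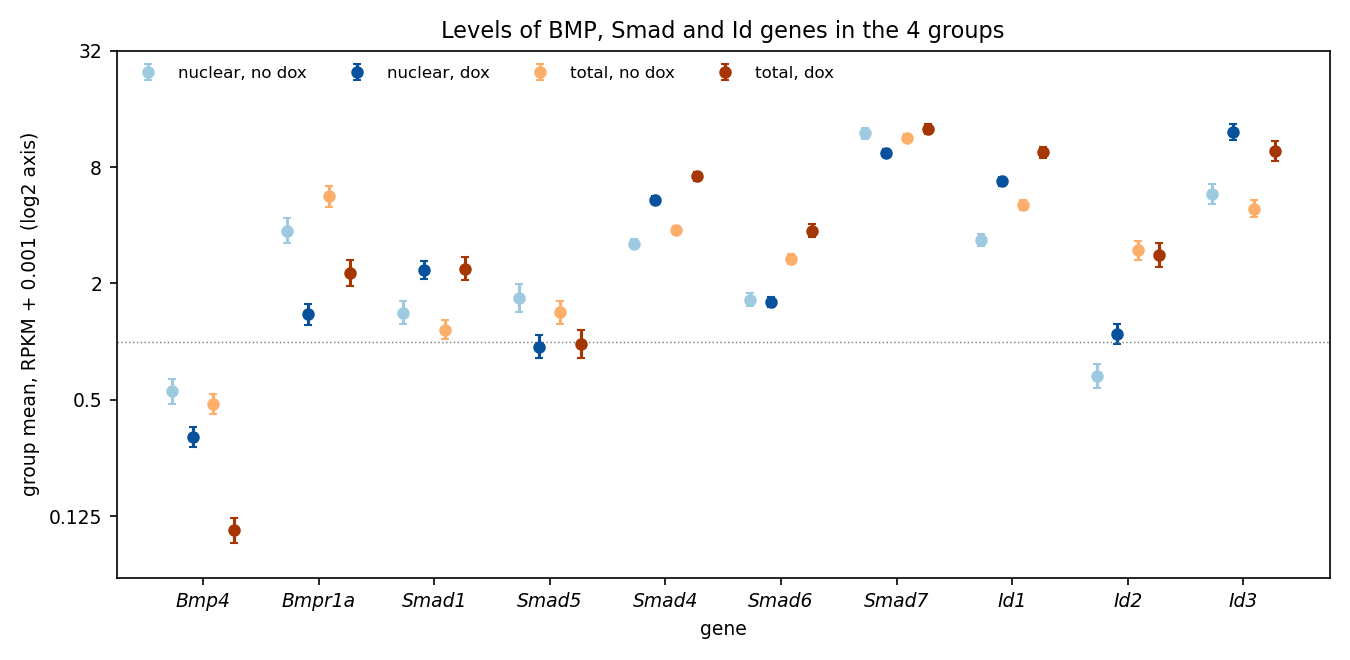
Group mean of each of the 10 genes in RPKM + 0.001 on a log2 axis, with bars of 1 SE from the recovered residual spread; colours are the 4 groups and the dotted line is 1 RPKM. Bmpr1a sits lower and Smad4, Id1 and Id3 sit higher in both dox-labelled groups, and Id2 is lower in both nuclear groups than in both total groups.

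A gene was tested where it reached 1 RPKM in at least 1 group, which 9 of the 10 genes did, and called at an adjusted p below 0.05. In nuclear RNA 5 of the 9 rose with the dox label (Smad1, Smad4, Id1, Id2 and Id3) and 3 fell (Bmpr1a, Smad5 and Smad7). Among all 10197 tested genes 43.1% were called higher and 26.3% lower, 69.4% in all. In total RNA 5 rose (Smad1, Smad4, Smad6, Id1 and Id3) and 1, Bmpr1a, fell, against 41.5% and 22.8% (64.3% in all) of the tested genes. Read against those shares, the members' counts lie near the background and are no result about the pathway as such. In bulk RNA, fewer cells that express a gene and less RNA per cell cannot be told apart. For the 9 genes the median log2 change was 0.73 (nuclear) and 0.49 (total), and for all tested genes 0.28 and 0.26. Changes relative to the all-gene median are given where they bear on a reading.

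**Figure D2:**
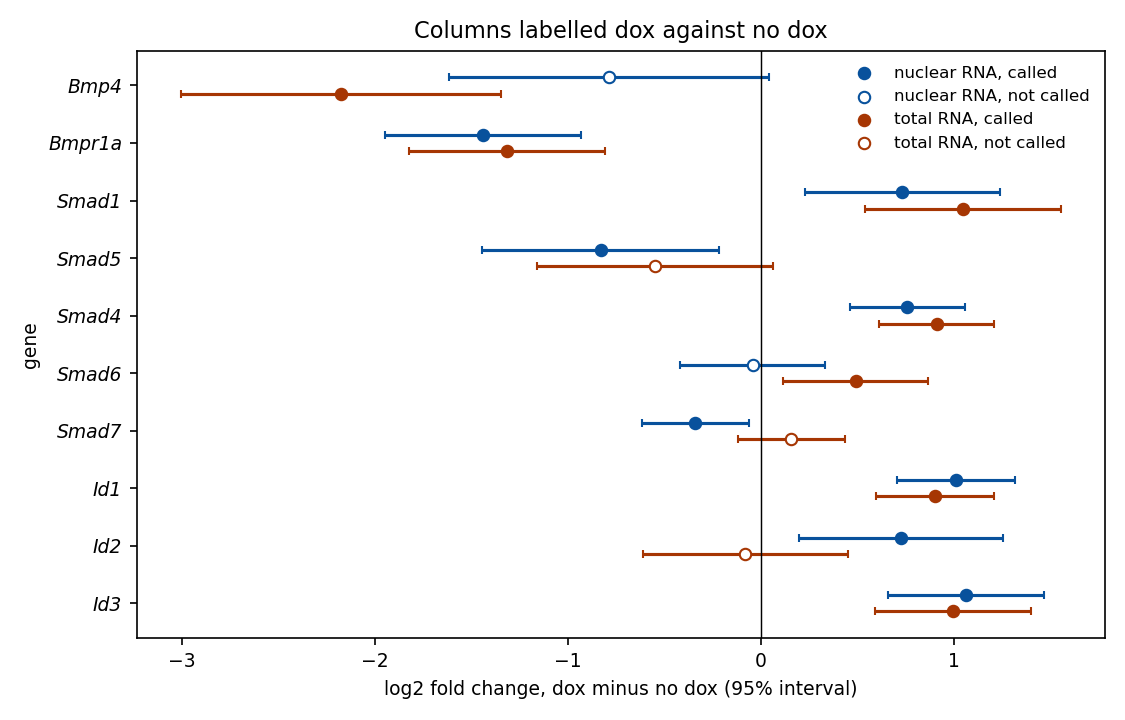
Log2 fold change of each gene, columns labelled dox minus no dox, with 95% intervals, in nuclear (blue) and total RNA (brown); filled points passed an adjusted p below 0.05, and Bmp4 is from the fit without a filter. Bmpr1a lies left of 0 and Smad1, Smad4, Id1 and Id3 right of 0 in both fractions.

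Bmp4, the ligand gene (ENSMUSG00000021835.15, mm10 chr14:46383520-46390669, minus strand), was scarce. Its level was 0.552 RPKM in nuclear RNA without dox, 0.319 in nuclear RNA labelled dox, 0.476 in total RNA without dox and 0.105 in total RNA labelled dox. In reads that is about 17.7 to 21.5 and 6.82 to 7.35 per nuclear library, and 15 to 16.6 and 2.37 to 2.55 per total library. It was fitted only with the filter on low values lifted, over 19429 genes. There it fell by 2.18 on the log2 scale in total RNA (95% interval -3.01 to -1.34, adjusted p = 0.00148). In nuclear RNA the value was -0.79 (interval -1.62 to 0.04, adjusted p = 0.124), and the difference between the effects, 1.39, had an adjusted p of 0.411. In the authors' deposited table the q-values are 0.000887 in total and 0.0327 in nuclear RNA. The dox-labelled total libraries held the fewest reads of Bmp4, so its fold in total RNA rests on few reads.

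Bmpr1a, which encodes a BMP type I receptor (ENSMUSG00000021796.15, chr14:34410734-34503341, minus strand), showed the largest dox-labelled change of the 9 tested genes. Its level was 3.76 RPKM in nuclear RNA without dox against 1.38 labelled dox, and 5.64 against 2.27 RPKM in total RNA. It fell 2.71-fold in nuclear RNA (log2 -1.44, SE 0.235, adjusted p = 1.13e-04). The fall in total RNA was 2.49-fold (log2 -1.31, SE 0.235, adjusted p = 2.85e-04). The effects differed by -0.13 (SE 0.333, adjusted p = 0.906). Relative to the median of all genes the falls were larger, -1.72 and -1.58.

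Smad1 (ENSMUSG00000031681.16, chr8:79338395-79399518, minus strand) and Smad5 (ENSMUSG00000021540.16, chr13:56703010-56742377, plus strand) encode receptor-regulated Smads of the pathway, and they moved apart in nuclear RNA. Smad1 had 1.41 RPKM in nuclear RNA without dox and 2.35 labelled dox, and 1.15 and 2.38 RPKM in total RNA. It rose 1.66-fold (log2 0.73, SE 0.235, adjusted p = 0.0134) and 2.07-fold (log2 1.05, adjusted p = 0.00155). Smad5, which carried the miR-290/miR-302 sites shown above, had 1.67 and 0.940 RPKM in nuclear RNA and 1.42 and 0.969 RPKM in total RNA. It fell 1.78-fold in nuclear RNA (log2 -0.83, SE 0.283, adjusted p = 0.0186). In total RNA its change of -0.55 (interval -1.16 to 0.06) missed the threshold at an adjusted p of 0.107. Once the group means were centred, Smad5 was called lower in total RNA. The nuclear call of Smad5 was lost with quantile normalized means (adjusted p = 0.0666) and without variance moderation (0.0556).

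Smad4, the partner that all receptor-regulated Smads share, rose in both fractions. Nuclear RNA held 3.21 RPKM without dox and 5.42 labelled dox, and total RNA 3.80 and 7.16 RPKM. The rise was 1.69-fold in nuclear (log2 0.76, SE 0.138, adjusted p = 2.78e-04), and total RNA showed 1.88-fold (log2 0.91, SE 0.138, adjusted p = 6.91e-05). It was called in both fractions under each of the 8 alternatives that could be run. Relative to the all-gene median it was 0.47 and 0.65.

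The inhibitory Smads split by fraction in their calls. Smad7 had 11.96 RPKM in nuclear RNA without dox and 9.45 labelled dox, and 11.3 and 12.6 RPKM in total RNA. It fell 1.27-fold in nuclear RNA (log2 -0.34, SE 0.128, adjusted p = 0.0303). In total RNA it stood at 0.16 (interval -0.12 to 0.43, adjusted p = 0.297). That direction turned to -0.03 with centred means and to -0.48 with quantile normalized means, where Smad7 was called lower in total RNA too. Smad6 (ENSMUSG00000036867.7, chr9:63953076-64022059, minus strand) had 1.65 and 1.60 RPKM in nuclear RNA, a change of -0.04 (interval -0.42 to 0.34, adjusted p = 0.842) whose sign turned with quantile normalized means. In total RNA it had 2.67 and 3.75 RPKM and rose 1.41-fold (log2 0.49, adjusted p = 0.0249), a call lost with centred (0.147) and quantile normalized means (0.0896). By limma, the tested difference between fractions was -0.50 for Smad7 (SE 0.181, adjusted p = 0.259) and -0.53 for Smad6 (SE 0.247, adjusted p = 0.38). Neither passed, so an unequal effect in nuclei and whole cells was not shown.

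Id1, Id2 and Id3 rose in nuclear RNA, and Id1 and Id3 in total RNA. Id1 (ENSMUSG00000042745.9, chr2:152736251-152737410, plus strand) had 3.35 RPKM in nuclear RNA without dox and 6.76 labelled dox, and 5.09 and 9.53 RPKM in total RNA. It rose 2.02-fold in nuclear (log2 1.01, SE 0.142, adjusted p = 3.05e-05), and total RNA showed 1.87-fold (log2 0.90, SE 0.142, adjusted p = 9.76e-05). Id3 (ENSMUSG00000007872.3, chr4:136143497-136145755, plus strand) had 5.81 and 12.1 RPKM in nuclear and 4.88 and 9.73 RPKM in total RNA. It rose 2.09-fold (log2 1.06, SE 0.187, adjusted p = 2.06e-04) and 1.99-fold (log2 1.00, SE 0.187, adjusted p = 4.08e-04), and the nuclear call was lost with quantile normalized means (0.0969). For both genes the 2 groups labelled dox stood above the 2 groups without it. Id4, the other Id gene of mice, taken from the wider pathway list, was called in neither fraction. Its log2 change was -0.44 in nuclear RNA (interval -0.91 to 0.04, adjusted p = 0.0924) and 0.11 in total RNA (interval -0.36 to 0.59, adjusted p = 0.665), at levels of 2.53 to 3.43 RPKM.

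Id2 (ENSMUSG00000020644.9, chr12:25093799-25097140, minus strand) behaved otherwise in its values. Nuclear RNA held 0.664 RPKM without dox and 1.10 labelled dox, while total RNA held 2.96 and 2.8 RPKM. It rose 1.65-fold in nuclear RNA (log2 0.73, SE 0.246, adjusted p = 0.0179). These nuclear levels rest on few reads, about 20.4 to 24.7 a library without dox and 22.4 to 24.1 in the shallower libraries labelled dox. The nuclear call was lost with centred means (0.0501), a pseudocount of 1 (0.0661) and no variance moderation (0.0536). In total RNA the change was -0.08 (interval -0.61 to 0.45, adjusted p = 0.786). By limma, the difference between fractions was 0.81 (interval 0.06 to 1.56), with an adjusted p of 0.344. Of the 9 genes 0 passed the limma test of that difference; 2 had an unadjusted p below 0.05, Id2 and Smad7. Over all tested genes 0 passed, or 0%, and 1338 had an unadjusted p below 0.05.

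Transcript length moved with the dox-labelled change across the whole table, and the 10 genes differ in it. The longest annotated transcript of Id1 is 1160 bases and that of Id3 1278, at percentiles 8.84 and 10.7 of the tested genes; Bmpr1a and Smad5 have 5956 and 6584 bases, at percentiles 85.9 and 89.3. The median change of all tested genes went from 1.04 in the shortest of 10 length classes to -0.85 in the longest in nuclear RNA, and from 0.69 to -0.63 in total RNA. With the length trend removed, Id1 stood at -0.12 and 0.10 and Id3 at -0.03 and 0.19 in nuclear and total RNA, with adjusted p-values from 0.385 to 0.891. Id2 stood at -0.09 in nuclear RNA and was called lower in total RNA (-0.73, adjusted p = 0.021). In both fractions Id1 and Id3 thus lay near the median of genes of their own length.

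Bmpr1a kept its fall once length was removed (-1.05, adjusted p = 0.00175, and -1.07, adjusted p = 0.00173), while Smad5 stood at -0.33 (adjusted p = 0.333) and -0.20 (0.567). Smad4 kept its rise (0.46, adjusted p = 0.0111, and 0.58, adjusted p = 0.00271), Smad1 kept it in total RNA (0.82, adjusted p = 0.00866), and Smad6 was called lower in nuclear RNA (-0.48, adjusted p = 0.0296). With a GC trend removed too, Bmpr1a, at 41.3% GC the most AT-rich of the 10 genes, stood at -0.30 (adjusted p = 0.29) and -0.37 (0.196). Under that fit the calls were Smad4 higher in both fractions (0.35, adjusted p = 0.0441, and 0.45, adjusted p = 0.0144), and Smad7 (-0.70, adjusted p = 4.9e-04), Smad6 (-0.83, adjusted p = 0.00137) and Id1 (-0.46, adjusted p = 0.015) lower in nuclear RNA. What links length and GC content to the label was not tested.

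**Figure D3:**
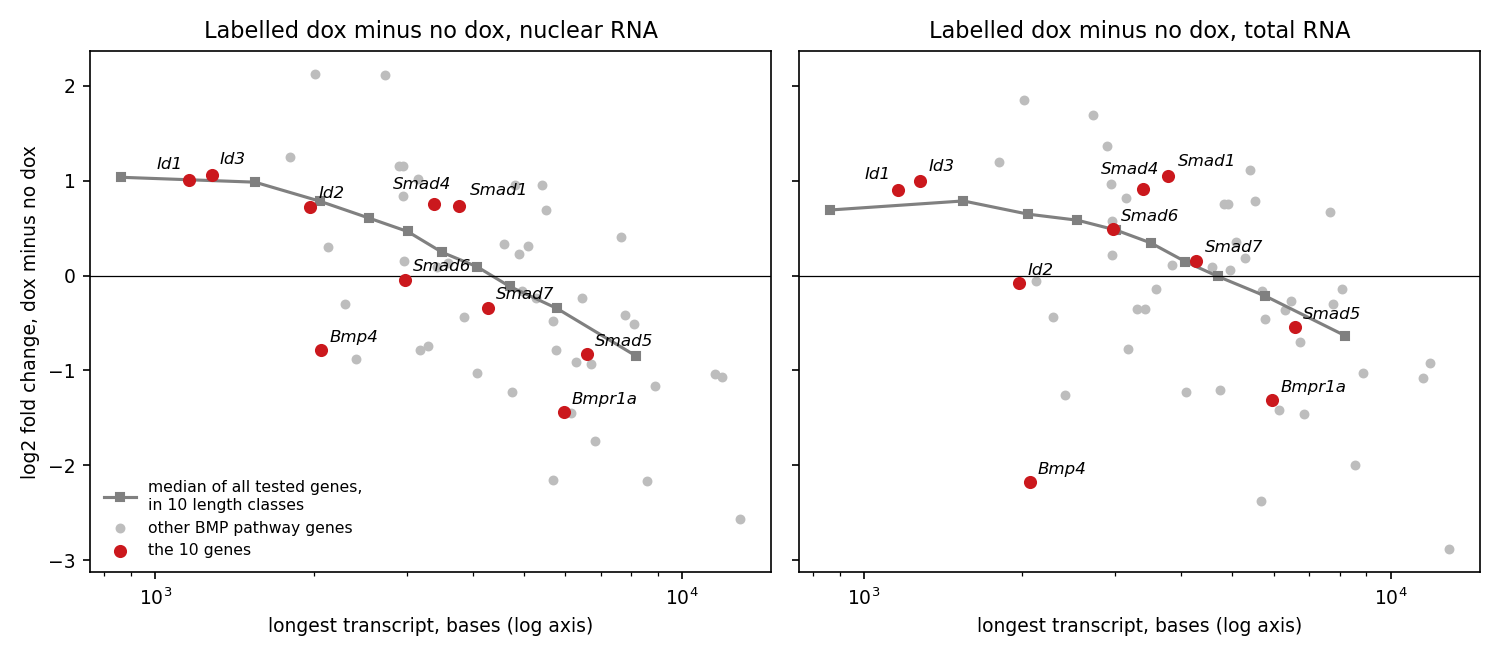
Log2 fold change, columns labelled dox minus no dox, against the longest transcript in bases (log axis), in nuclear (left) and total RNA (right); red points are the 10 genes, pale points other BMP pathway genes, and the grey line joins medians of all tested genes in 10 length classes of equal size, drawn at the median length of each. Id1 and Id3 lie on or near the line, Smad1 and Smad4 above it and Bmpr1a below it in both panels; Bmp4 is from the fit without a filter.

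Levels in nuclear and total RNA were compared next, with the caution that nuclear long noncoding RNAs, which should mark the nuclear fraction, were not enriched in it. Malat1 was lower in nuclear than in total RNA (log2 -0.44 without dox, adjusted p = 0.0154, and -0.86 labelled dox, adjusted p = 2.21e-04), and Neat1 stood at -0.14 (adjusted p = 0.451) and -0.70 (adjusted p = 0.00134). Of 5 such RNAs tested, Meg3 alone was called higher, without dox (0.46, adjusted p = 0.0479). The median of all tested genes was -0.31 without dox and -0.32 labelled dox. These comparisons share their libraries with those of the dox label.

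Without dox, 3 of the 9 genes (Id1, Id2 and Smad6) were lower in nuclear than in total RNA and 0 higher, against 34.7% and 4.01% of all tested genes (38.7% either way). Labelled dox, 6 were lower (the same 3 with Bmpr1a, Smad4 and Smad7) and 0 higher, against 34.8% and 5.84% (40.6% either way). Id2 was 4.46-fold lower in nuclear RNA without dox (log2 -2.16, adjusted p = 2.56e-05) and 2.55-fold lower labelled dox (log2 -1.35, adjusted p = 9.35e-04). Relative to the all-gene median it was still at -1.85 and -1.03, and it was called under each alternative in which it was tested. Smad6 was 1.62-fold lower without dox (log2 -0.70, adjusted p = 0.0069) and 2.35-fold lower labelled dox (log2 -1.23, adjusted p = 1.58e-04), a value near that of Id2 labelled dox. The first of these calls was lost with centred means (0.133), and the second held at -0.86 (adjusted p = 0.00274).

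Id1 was 1.52-fold and 1.41-fold lower in nuclear RNA (log2 -0.60, adjusted p = 0.00476, and -0.49, adjusted p = 0.0144). Both calls were lost once the group means were centred (-0.28, adjusted p = 0.166, and -0.13, adjusted p = 0.534). Id3 went the other way in value, at 0.25 (adjusted p = 0.316) and 0.32 (0.189), and was called higher in nuclear RNA with centred means (0.57, adjusted p = 0.0371, and 0.69, adjusted p = 0.0146). Among the 3 Id genes, which share a function, the nuclear level relative to total RNA thus ran from Id2 at the bottom to Id3 at the top in both conditions. The calls of Bmpr1a, Smad4 and Smad7 labelled dox (-0.71, -0.40 and -0.41, adjusted p = 0.028, 0.0341 and 0.0208) were lost with centred means. Smad1 (0.29 and -0.02) and Smad5 (0.24 and -0.04) passed in neither condition. Bmp4, fitted only with the filter on low values lifted, stood at 0.21 without dox (adjusted p = 0.773). Labelled dox it was called higher in nuclear RNA (1.60, adjusted p = 0.0153). That value rests on about 2.37 to 2.55 reads per total library.

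**Figure D4:**
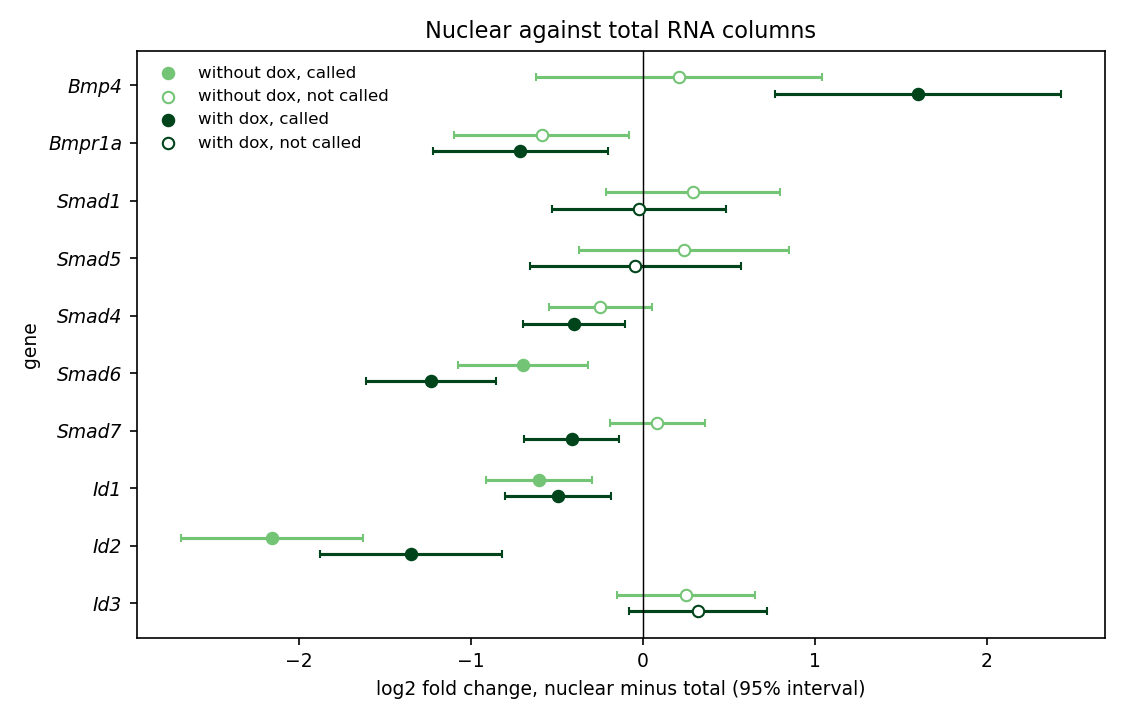
Log2 fold change, nuclear minus total RNA, with 95% intervals, without dox (light green) and labelled dox (dark green); filled points passed an adjusted p below 0.05, and Bmp4 is from the fit without a filter. Id2 lies farthest left without dox and is left of 0 in both conditions, whereas Id3 lies right of 0 with intervals that include 0.

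The other genes of the pathway show where the 10 genes stand. A list of 76 held ligands, antagonists, receptors, co-receptors, other Smads, Smad cofactors, other targets and E proteins; 75 were in the table and 42 reached the test. In nuclear RNA 11 of the 42 were called higher and 16 lower (median -0.27), and in total RNA 12 higher and 14 lower (median -0.15). That is beside 43.1% higher and 26.3% lower among all tested genes in nuclear RNA (median 0.28) and 41.5% and 22.8% in total RNA (median 0.26). With length and GC trends removed the counts were 11 and 9 in nuclear RNA, where all genes gave 29.1% and 27.1%, and 12 and 11 in total RNA, where all genes gave 29.1% and 25.9%.

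Most extracellular members were hardly expressed. Of the 11 ligands present, 2 were tested, Gdf3 at 21.1 to 30.6 RPKM and Bmp8a at 0.327 to 1.04 RPKM. Bmp8a fell 2.39-fold in total RNA (log2 -1.26, adjusted p = 0.0118). Of 13 secreted antagonists Twsg1, a BMP-binding protein, was the 1 tested, and it fell 2.04-fold and 2.35-fold (log2 -1.03, adjusted p = 9.11e-04, and -1.23, adjusted p = 2.55e-04). Among co-receptors Rgmb, a BMP co-receptor, fell 1.40-fold in nuclear RNA (log2 -0.48, adjusted p = 0.0167) and stood at -0.16 in total RNA (adjusted p = 0.399). With length and GC trends removed Twsg1 and Bmp8a were called lower in both fractions, and Rgmb in neither.

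Of 4 receptor genes tested besides Bmpr1a, 3 were lower and 0 higher in each fraction, beside 26.3% (nuclear) and 22.8% (total) of all tested genes called lower. Bmpr2, the BMP type II receptor, went from 2.16 to 0.364 RPKM in nuclear and from 3.15 to 0.428 RPKM in total RNA, 5.92-fold and 7.35-fold (log2 -2.57, adjusted p = 1.56e-06, and -2.88, adjusted p = 8.05e-07). Acvr2a, an activin type II receptor that BMPs also use, fell 4.46-fold and 5.17-fold (log2 -2.16, adjusted p = 8.47e-06, and -2.37, adjusted p = 4.66e-06). The longest transcript of Bmpr2 has 12899 bases and that of Acvr2a 5686. With length and GC trends removed Acvr2a was still lower in both fractions (-0.87, adjusted p = 0.0129, and -1.27, adjusted p = 0.00128), and Bmpr2 in total RNA (-1.05, adjusted p = 0.00421) but not in nuclei (-0.45, adjusted p = 0.157).

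Of the Smads outside the BMP branch, Smad2, an activin and Nodal Smad, fell 1.43-fold in nuclear RNA (log2 -0.51, adjusted p = 0.0336); with length and GC trends removed it was called higher instead (0.53, adjusted p = 0.0348). Cofactors and regulators of the signal went both ways, 9 of 25 higher and 8 lower in nuclear and 10 higher and 8 lower in total RNA, which is near the shares over all genes given above. Fkbp1a, whose product FKBP12 binds type I receptors and keeps them quiet, rose from 8.99 to 39.1 RPKM in nuclear and from 10.4 to 37.5 RPKM in total RNA, 4.34-fold and 3.61-fold (log2 2.12, adjusted p = 5.54e-09, and 1.85, adjusted p = 3.31e-08). It was higher with both trends removed too (0.98, adjusted p = 1.17e-05, and 0.95, adjusted p = 2.19e-05). Stub1, a ubiquitin ligase, rose 2.37-fold and 2.30-fold, and Tgif2, a corepressor of Smads, 2.23-fold and 2.58-fold. Xiap, a ubiquitin ligase that links BMP receptors to TAK1, fell 3.35-fold and 2.74-fold, and Zfyve16 (endofin), a Smad anchor, 2.73-fold and 2.67-fold. All 4 passed in both fractions, with adjusted p-values from 8.61e-07 to 2.5e-04. With length and GC trends removed Stub1 (0.014 and 0.22), Xiap (0.20 and 0.28) and Zfyve16 (-0.17 and -0.33) were called in neither fraction, and Tgif2 in total RNA alone (0.67, adjusted p = 0.00175).

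Of 9 other targets listed 2 were tested, Dusp9 and the fourth Id gene, Id4, whose values stand with the Id genes above. Dusp9, a MAP kinase phosphatase that BMP signalling induces in mouse ESC, rose from 1.58 to 6.84 RPKM in nuclear and from 1.29 to 4.18 RPKM in total RNA. That is 4.33-fold and 3.24-fold (log2 2.11, adjusted p = 4.01e-07, and 1.69, adjusted p = 4.06e-06), and it was called with length and GC trends removed (1.25, adjusted p = 9.83e-05, and 0.96, adjusted p = 7.94e-04). Of the E proteins that Id proteins bind, Tcf3 (E2A) rose 2.23-fold and 1.95-fold (log2 1.15, adjusted p = 1.42e-06, and 0.97, adjusted p = 9.47e-06), while Tcf4 (E2-2) fell 4.49-fold and 4.0-fold (log2 -2.17, adjusted p = 1.17e-05, and -2.0, adjusted p = 2.96e-05). Tcf12 (HEB) fell 1.88-fold in nuclear RNA (log2 -0.91, adjusted p = 5.63e-04). With both trends removed, of these calls Tcf3 in nuclear RNA was left (0.36, adjusted p = 0.0173), and Tcf4 stood at -0.53 (adjusted p = 0.116) and -0.60 (0.0783).

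**Figure D5:**
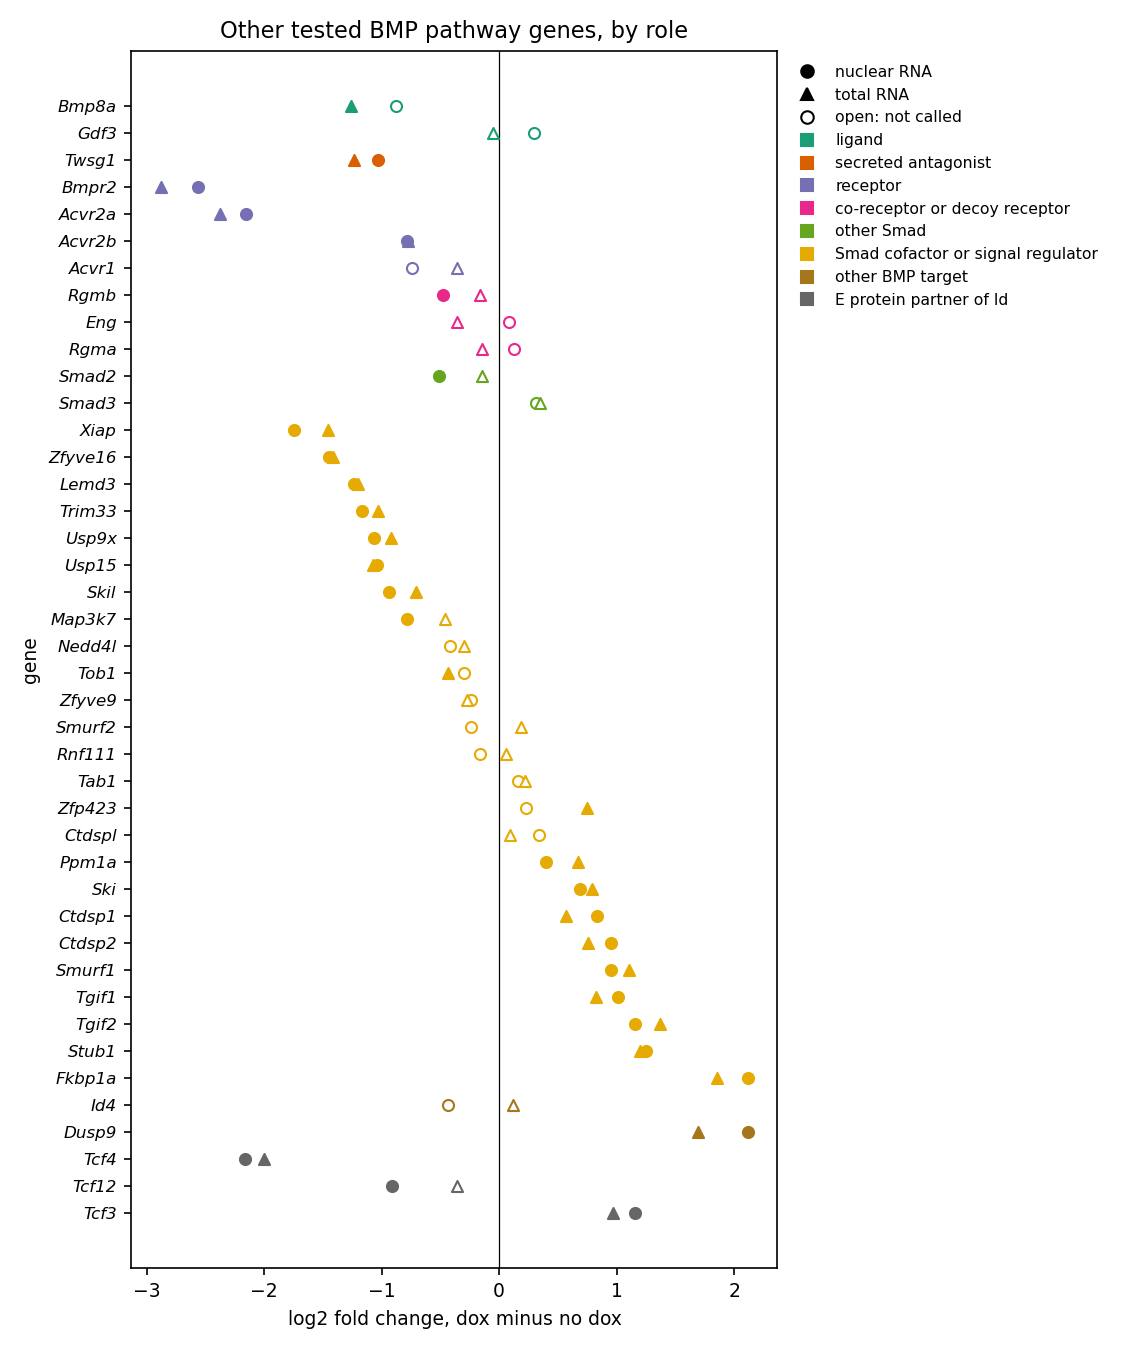
Log2 fold change, columns labelled dox minus no dox, of the 42 other pathway genes tested, by role (colour), in nuclear (circles) and total RNA (triangles); filled symbols passed an adjusted p below 0.05. Receptors lie left of 0, from Bmpr2 at -2.88 in total RNA, and Fkbp1a and Dusp9 lie farthest right, at 2.12 and 2.11 in nuclear RNA.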

How the data were processed

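RNA-seq of nuclear and total RNA from mouse ESC was listed as 12 libraries in 4 groups. Per the submitters' processing notes, bcl2fastq 2.17.1, TopHat and the mm10 build were used; the gene annotation, the read counting and its strand setting are not given in the sources used here. Per the file headers, the authors computed RPKM and an ANOVA in Partek 6.6. The deposited table holds group means on the log2 scale, log2(RPKM + 0.001), for 19716 genes, with the authors' p-value and q-value of the dox comparison in each fraction. The deposited ratio is the linear ratio of the means, and the authors' signed fold change, treated as a score, is that ratio or minus its inverse.

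The residual standard deviation per gene was recovered from the 2 deposited p-values. Both gave the same value within 0.001 at 6 degrees of freedom for 99.99% of 17154 genes, against 11.01% and 13.14% at 5 and 7, which fits 10 libraries with group as the single factor. Which 2 of the 12 libraries stayed out is unknown. The number behind each mean was read from genes above 0 in 1 group alone, and depth from the steps of low values. limma 3.58.1 in R 4.3.3 moderated the variances with a trend on the mean level and tested the 10197 genes that reached 1 RPKM in any group, over all 4 groups. P-values were Benjamini-Hochberg adjusted within a comparison. The fit was tested on simulated data with normal noise, few changed genes and no trend on length or GC content. That simulation gives no error rate for these data, where most tested genes were called for the dox label.

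Lengths, GC content, 3′UTRs and gene positions came from GENCODE M21 (mm10), miRNAs and promoters from RefSeq (GRCm38.p6). A seed site was the reverse complement of bases 2 to 8, or of bases 2 to 7 followed by A, on the transcript strand. The 10 genes and all lists were chosen with earlier results of these data known. Named in the text are the 10 genes and Ago2. Added in each pathway role were up to 2 called genes with the largest rise and 2 with the largest fall in either fraction. Gdf3, Id4, Dppa5a, Tdgf1, Zfp42, Krt8, Cdx2, Elf5, Gata3, Meg3, Malat1 and Neat1 were named after their values were seen. Alternatives were other filters, a pseudocount of 1, no moderation, centred or quantile normalized means, and removed length and GC trends.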

Additional observations from a re-analysis of the deposited data

How the results depend on the processing

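The counts of called members moved with the scaling and with length. Members higher labelled dox numbered 3 of 5 tested in each fraction with a filter of 5 RPKM, where 65.2% (nuclear) and 63.2% (total) of all genes were higher. With the length trend removed 1 of 9 in nuclear and 2 in total RNA were higher (all genes 31.6% and 31.5%), and with length and GC trends removed 1 and 1 (29.1% and 29.1%). Members lower in total RNA labelled dox were 2 with no filter, 2 with centred means, 2 with quantile normalization, 2 with the length trend removed and 0 with length and GC trends removed (all genes 15.2%, 28.5%, 28.1%, 28.8% and 25.9%). Nuclear above total RNA labelled dox were 1 with no filter and 1 with centred means (all genes 3.28% and 16.4%); without dox they were 2 (centred), 3 (quantile), 2 (length) and 2 (length and GC), with 11.3%, 18.2%, 11.3% and 11.2% of all genes. Nuclear below total RNA labelled dox were 2, 2, 2 and 3 in that order (13.5%, 10.7%, 14% and 14.1%), and without dox 1 in each (15.4%, 17.7%, 15.2% and 15.2%). The count with an unequal effect in the 2 fractions was 0 under all 8 alternatives. Over all genes the nuclear effect was called higher in 2.23% and lower in 0.245% with a filter of 5 RPKM. With quantile normalization these shares were 0.118% and 0.108%, and no other alternative gave a larger share than these.

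With the length trend removed the nuclear values of Id1, Id2 and Id3 turned to -0.12, -0.085 and -0.032. With length and GC trends removed Id1 turned to -0.46 in nuclear and -0.16 in total RNA, Id3 to -0.38 and -0.064, Smad5 to 0.011 in nuclear and Smad6 to -0.22 in total RNA. Smad7 in total RNA turned to -0.48 with quantile normalization and was called lower there. The cause was not tested. Over all tested genes the share of calls that were higher was 10.4% for nuclear against total RNA without dox and 14.4% labelled dox; centring made it 42.4% and 54.8%, and quantile normalization 50.7% and 45.7%. The dox label gave 62.1% in nuclear and 64.6% in total RNA, and 51.1% and 52.2% with the length trend removed. No paired analysis was possible because the table gives group means and no single libraries; for the same reason leaving out each library was not run. Reads per gene limit Bmp4 and nuclear Id2.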
